A study of Rattus norvegicus with 743 samples.

Results

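Rat liver messenger RNA was examined here for 34 genes of peroxisome proliferator-activated receptor alpha (PPARalpha) action and fatty acid oxidation, out of 32893 gene rows. The genes were fixed by symbol, and where a symbol had several rows the row with the most counts was used. The list held 7 peroxisomal members, 18 mitochondrial members, 2 members that act in more than 1 compartment, called multi-compartment here (Crat and Slc27a2), and 7 other PPARalpha targets. A row was found for 33 of the 34. The fatty acid uptake receptor Cd36 had no row in the Ensembl gene table and is described from the RefSeq gene table of the same libraries. The data were 743 liver libraries from 680 rats that received a drug or its vehicle daily. Each of 97 treated groups, covering 95 treatments, was set against the vehicle group of the same study, batch and vehicle, with 2 to 6 rats a group.

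PPARalpha is a nuclear receptor that binds fatty acids and fibrate drugs, pairs with a retinoid X receptor and switches on genes of fatty acid use in the liver. Peroxisomes shorten very long and branched chains, and mitochondria take the shortened and the ordinary chains through the carnitine shuttle and break them down to acetyl units, part of which leaves the liver as ketone bodies. In rodents the peroxisomal enzymes, above all the bifunctional enzyme Ehhadh, are the classical responders to fibrates.

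The groups described in full were male rats, dosed for 4 days with the drug in methylcellulose and water unless stated. Sprague Dawley rats received clofibrate (600 mg/kg per day), esomeprazole (600 mg/kg) or sudoxicam (100 mg/kg). Han Wistar rats received amiodarone, valproate, perhexiline maleate or tetracycline (each 600 mg/kg), fluoxetine (400 mg/kg) or MK-3207 (600 and 750 mg/kg, with a shared vehicle group). Han Wistar rats also received troglitazone (600 mg/kg for 7 days, in poloxamer and sucrose) and NB-360 (750 mg/kg for 5 days, in a mix of HPMC, polysorbate and polyethylene glycol). Every group had 4 rats, except 3 treated rats for fluoxetine and 3 for sudoxicam. Controls carried the vehicle alone, and the labels name no transgene or added agent. The route and age are not given in the sources used here. Replicates are separate rats. Among the other groups, almorexant was given to female Sprague Dawley rats for 7 days in polyethylene glycol. The bardoxolone and pyrazole comparisons held males and females. Of groups named below for single values, Sprague Dawley rats received telcagepant or naproxen (each 400 mg/kg), diclofenac (50 mg/kg), azithromycin or co-amoxiclav (each 600 mg/kg). Han Wistar rats received mibefradil, methyldopa or chlorpropamide (each 600 mg/kg), zimelidine (400 mg/kg), bardoxolone (10 mg/kg) or TCDD (0.00015 mg/kg). Treated rats numbered 2 for naproxen, 3 for diclofenac, mibefradil and bardoxolone, and 4 for the others. Of all 97 comparisons 89 were of 4 days, and the others ran from 3 to 17 days.

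PPARalpha and its partner bind a direct repeat spaced by 1 base, so the promoters of the members were searched for it. The motif was AGGTCA followed by any base and AGGTCA again, on both strands of RefSeq promoters of build GRCr8, from 250 bases before to 50 bases after each start site. This build is not the one used for the counts. A promoter was found for 29 of the 34 members. No member held the exact motif, and 6 of the 29 (20.7%) held a match with at most 2 of the 12 fixed letters changed, against 3.77% of all 33469 promoters. The matches are shown, in capitals with 8 flanking bases on each side, because they are the closest to the repeat in the members' start regions. A match is a description of these letters and not a measured binding site.
Acadvl: gggagaagAGGTCAGTGGTCAaggcttca
Fabp1: tcaaatatAGGCCATAGGTCAgtgattgt
Crat: gacgttcaAGGACACCGGTCAgacttgga
Slc27a2: gatggcatATCTCAAAGGTCAtttcttca
Slc25a20: cttaatgtAGGTGAAAGGTCGgtgtagcc
Etfa: ttgggagtAGGGCAAAGGTAAgggtgtgc
The Acadvl and Fabp1 matches had 1 letter changed and the other 4 had 2. In order, the runs lie at chr10:55236702-55236730 (minus strand), chr4:104749255-104749283 (minus), chr3:34087302-34087330 (minus), chr3:134258017-134258045 (minus), chr8:118243580-118243608 (plus) and chr8:64788099-64788127 (plus). The matches begin before the gene's start site in 5 of the 6, and in Slc25a20 15 bases after it, inside the transcript. The best match in the Ehhadh window had 3 letters changed.

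In untreated liver the members covered a wide range of levels. FPKM, sequenced fragments scaled to transcript length and library total, allow genes to be compared and were read in 1 rat of each of the 83 vehicle groups, in the Ensembl table. Fabp1, the liver fatty acid binding protein, stood highest, with a lowest, median and highest value of 1202, 2627 and 5509 FPKM. Slc27a2, which activates and imports very long chains, followed at a median of 644 FPKM, then the mitochondrial thiolase Acaa2 at 529 and the mitochondrial enoyl-CoA isomerase Eci1 at 487. The highest peroxisomal members were the peroxisomal isomerase Eci2 (median 404 FPKM) and Ehhadh (275.5 FPKM, from 54.96 to 1066). In the RefSeq table Eci2 had a median of 115 FPKM, so its place in this order depends on the gene model. Cpt1a, the liver form of the enzyme that admits fatty acids into mitochondria, had a median of 164 FPKM. The lowest members were Cpt1b, the muscle form of that enzyme (1.58 FPKM), the cytosolic acyl-CoA thioesterase Acot1 (0.702 FPKM) and the glycerol channel Aqp3 (0.0945 FPKM). Neighbours in this order mostly overlapped: the interquartile range of Acaa2 was 439.7 to 664 FPKM and that of Eci1 348 to 625 FPKM.

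**Figure D1:**
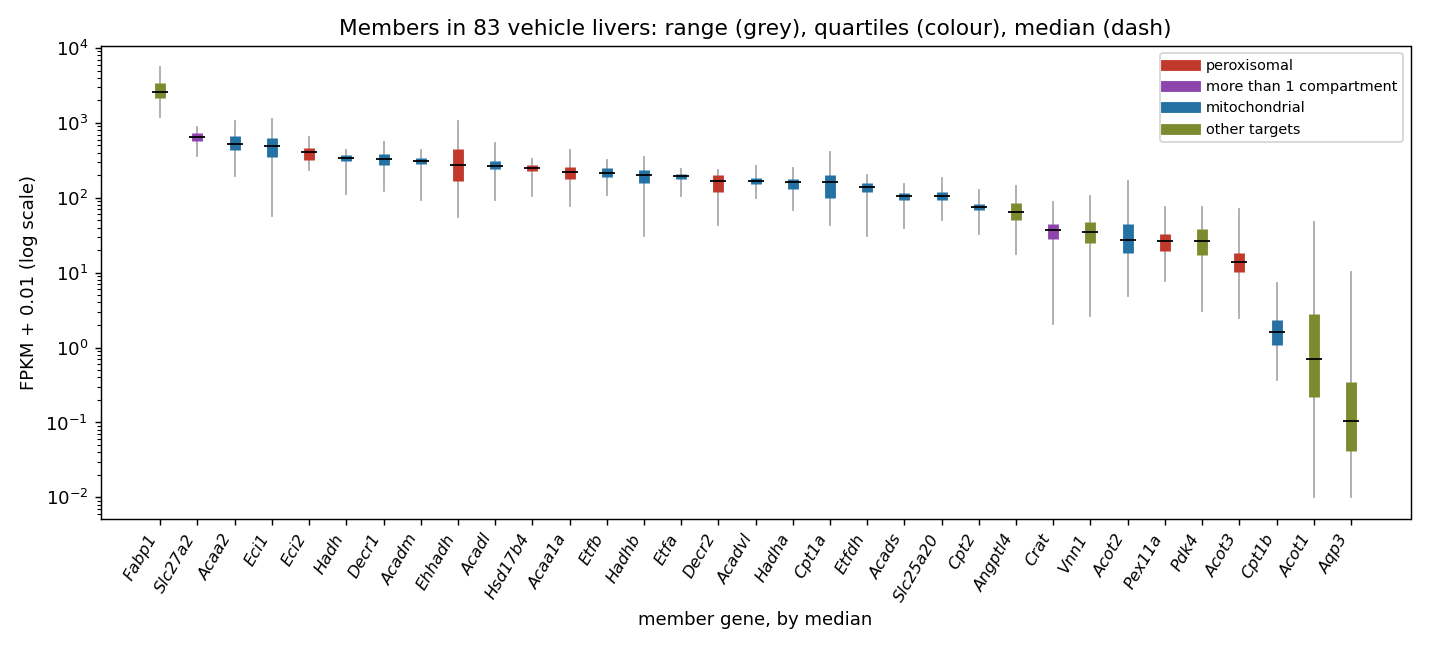
FPKM (plus 0.01, log axis) of the 33 members in 1 rat of each of 83 vehicle groups, with the range in grey, the interquartile range in colour and the median as a dash. Fabp1 is highest (median 2627) and Acot1 and Aqp3 lie below 1.

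Across the treatments the members fell far more often than they rose. A gene was called changed where the adjusted p of edgeR's quasi-likelihood test was below 0.05, with adjustment over all genes of the comparison. Of 3114 member tests in the 97 comparisons, 98 (3.15%) were higher and 508 (16.3%) lower, while over all genes 4.97% of tests were higher and 4.55% lower. At least 1 member was called in 53 comparisons and none in 44. At least 10 members were lower in 24 comparisons, and at least 10 were higher in 2, clofibrate and amiodarone. The imbalance was present in both strains: 20.6% of member tests were lower in Han Wistar rats against 5.41% of all tests, and 11.2% in Sprague Dawley rats against 3.53%. RNA integrity (RIN, a score of RNA breakdown) was on average higher in the treated group in 71 of the 97 comparisons. With RIN as a covariate 68 member tests were higher and 268 lower. The shares of all genes called with that covariate are not given here or below. A loss of calls among the members therefore cannot be told from a general loss. Comparisons are not independent, since 31 of them share 15 vehicle groups. Some vehicle rats were also sequenced again in another batch and serve a further comparison there, as with cimetidine and propranolol. That count does not include such rats.

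Clofibrate, a fibrate that binds PPARalpha, raised 25 of 33 members and lowered none; over all genes 8.71% were higher and 6.31% lower. By role, 5 of 7 peroxisomal, 1 of 2 multi-compartment, 15 of 18 mitochondrial and 4 of 6 other members rose. The median log2 fold change of the members was 0.95, against -0.02 over all genes. All values below are CPM, counts scaled to the library total, which compare rats within a gene.

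Ehhadh, which carries out the middle steps of peroxisomal beta-oxidation, read 636, 635, 623 and 1195 CPM in the vehicle rats and 16704, 11966, 23215 and 14302 CPM in the clofibrate rats. The groups lay far apart, and the log2 fold change was 4.42 (SE 0.31, adjusted p = 0.000233 by edgeR). Acaa1a, the peroxisomal thiolase that makes the last cut, read 287 to 360 CPM in the vehicle rats and 2303, 1906, 3700 and 1681 CPM in the treated rats, a log2 fold change of 2.84 (SE 0.25). This row shares near-identical sequence with Acaa1b, which has no row in the Ensembl table. In the RefSeq table, which lists both, clofibrate changed Acaa1b from 172 ± 13.4 to 7092 ± 3313 CPM (SD, n = 4), a log2 fold change of 5.37 (SE 0.33). There Acaa1a rose by 0.61 (SE 0.12). The split of reads between the copies depends on the gene models, so Acaa1a is uncertain throughout.

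The other peroxisomal rises with clofibrate were smaller. Decr2, an auxiliary reductase for unsaturated chains, rose from 211 ± 17.7 to 399 ± 74.3 CPM (SD, n = 4), a log2 fold change of 0.92. Eci2 rose by 0.80 and Hsd17b4, the bifunctional enzyme for branched chains, by 0.57 on the log2 scale. Of the multi-compartment members Slc27a2 rose by 0.60. The Slc27a2 call was lost without treated rat 4 or vehicle rat 1, 2 or 4 (adjusted p by edgeR up to 0.0804), and that of Hsd17b4 without treated rat 4 or vehicle rat 1 or 2 (up to 0.0626). Acot3, a peroxisomal thioesterase, and Pex11a, which helps peroxisomes to divide, were not called. Acot3 read 21.2, 7.7, 166 and 16.9 CPM in the 4 treated rats and 13.4 to 27.5 CPM in the vehicle rats. Pex11a read 172, 87.9, 717 and 127 CPM in the treated rats and 73.6 to 121 CPM in the vehicle rats. In both genes the third treated rat alone lay far above the vehicle range.

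Among mitochondrial members the largest rise with clofibrate was in Cpt1b, from 3.8, 7.2, 7.0 and 12.3 CPM to 180, 57.0, 314 and 115 CPM (log2 fold change 4.46, SE 0.62, adjusted p = 0.00593 by edgeR). No muscle marker passed the count filter in this comparison. Acot2, the mitochondrial thioesterase, rose by 2.12 (SE 0.45) and Eci1 by 1.84 (SE 0.18). The Acot2 call was lost without vehicle rat 1 or 3 (adjusted p by edgeR 0.0646 and 0.0525). Acaa2 rose by 1.09 (SE 0.14), from 962 to 2046 CPM. The 2 subunits of the trifunctional protein, Hadha and Hadhb, rose by 0.92 and 0.96, and the medium-chain dehydrogenase Acadm by 0.95. Cpt1a did not follow. It read 1157, 1110, 988 and 964 CPM in the vehicle rats and 608, 628, 1017 and 691 CPM in the treated rats (log2 fold change -0.52, SE 0.17, adjusted p = 0.0704 by edgeR). Without the third treated rat the value was -0.70 and the adjusted p was 0.00923, which is a fall.

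Of the other targets, Acot1 read 0.5, 3.9, 0.9 and 3.9 CPM in the vehicle rats and 262, 83.2, 1382 and 143 CPM with clofibrate (log2 fold change 7.68, SE 1.29, adjusted p = 0.0103 by edgeR). Acot1, Acot2 and Acot3 are near copies of each other, and reads may be split between them. Aqp3 went from 0.1 to 2.0 CPM in the vehicle rats to 63.4, 29.2, 114 and 70.1 CPM, a log2 fold change of 6.14 (SE 0.68). Vnn1, a pantetheinase, rose by 2.21 (SE 0.25) and Fabp1 by 1.17 (SE 0.16). Pdk4, the kinase that holds back glucose oxidation, read 51.0, 14.8, 337 and 17.3 CPM against 24.6 to 41.2 CPM in the vehicle rats and was not called. Angptl4, a secreted inhibitor of lipoprotein lipase, read 92.6, 26.9, 374 and 48.4 CPM against 60.8 to 181 CPM. Both genes were high in the third treated rat only. Without that rat 25 members were again higher and Cpt1a was lower, but Pdk4 had a log2 fold change of -0.32 and Acot3 of -0.41, neither called. Hepatocyte markers moved at the same time: their summed level was 186540 to 205668 CPM in the vehicle rats and 106068 to 145510 CPM in the treated rats, and 6 of 10 were lower. Of the macrophage markers 8 of 10 were lower, with a sum of 512.5 to 708.5 CPM against 383.4 to 455.6 CPM. Their part in the result was not tested. In bulk liver, fewer cells of a type and less RNA per cell cannot be told apart.

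**Figure D2:**
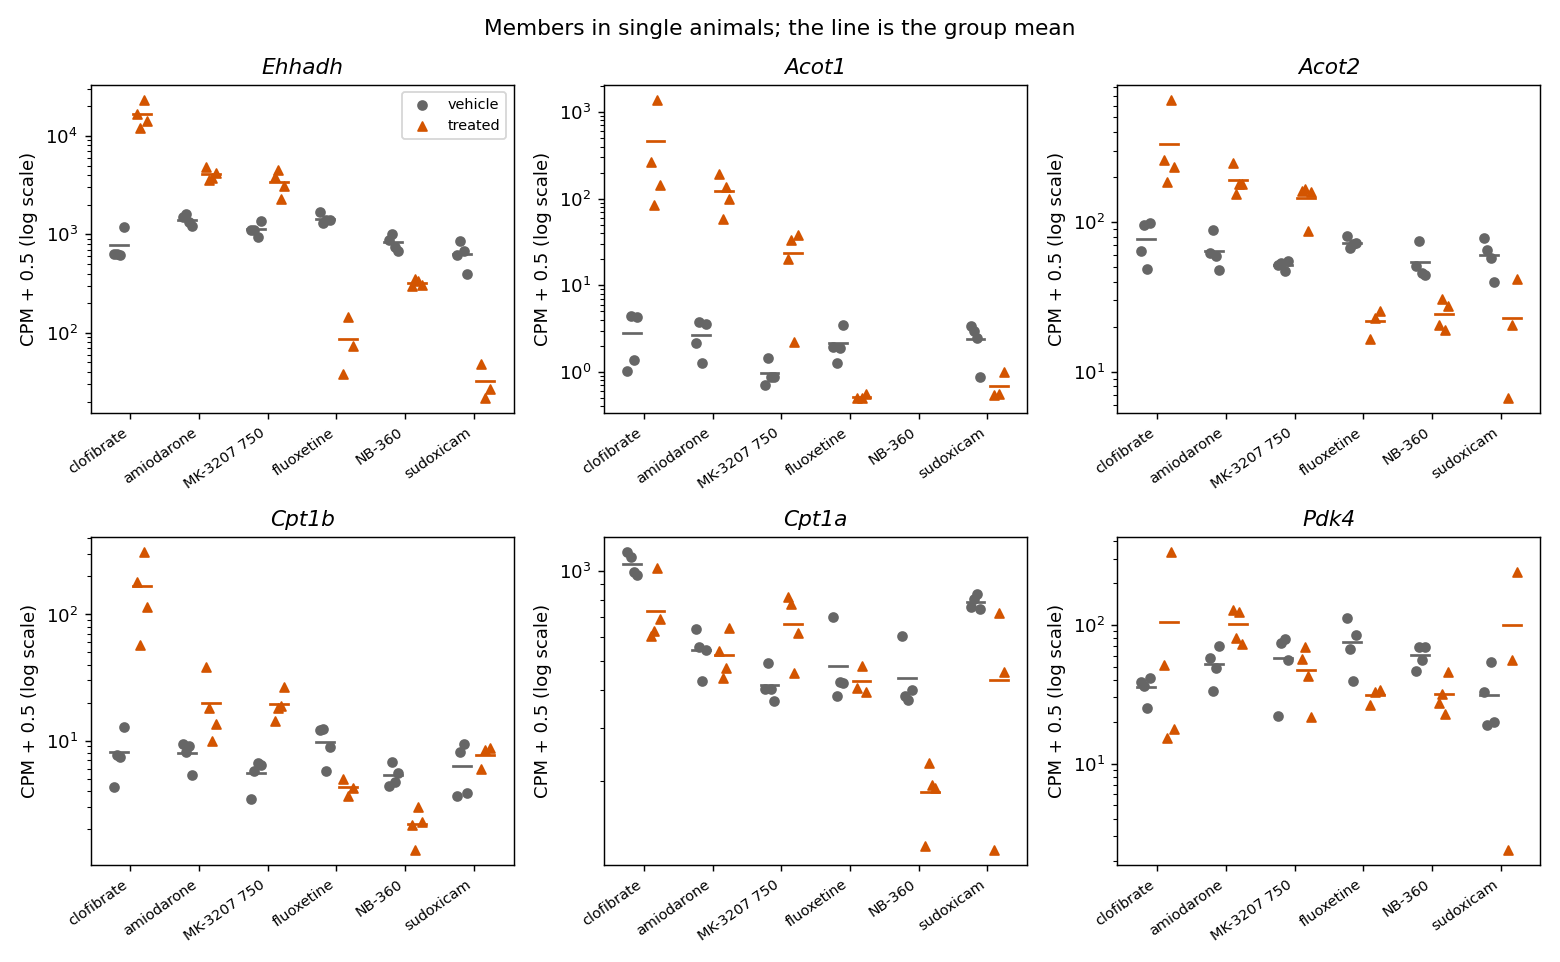
CPM plus 0.5 (log axis) of 6 members in single rats of 6 comparisons, vehicle as grey circles and treated as orange triangles, with a line at each group mean. Ehhadh separates the groups in all 6, while 1 clofibrate rat alone is high for Pdk4; Acot1 did not pass the count filter in the NB-360 comparison.

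Amiodarone, an antiarrhythmic drug, raised 14 of 32 members and lowered none; over all genes 3.2% were higher and 3.07% lower. By role, 4 of 7 peroxisomal, 1 of 2 multi-compartment, 5 of 18 mitochondrial and 4 of 5 other members rose. Ehhadh read 1490, 1591, 1320 and 1225 CPM in the vehicle rats and 4868, 3603, 3710 and 4230 CPM in the treated rats (log2 fold change 1.54, SE 0.13, adjusted p = 0.000157 by edgeR). Pex11a rose further, from 38.4 to 57.9 CPM in the vehicle rats to 240, 142, 202 and 170 CPM, a log2 fold change of 1.98 (SE 0.18). Acot3 rose by 1.28 (SE 0.20) and was high in all 4 rats, at 39.1, 43.3, 49.1 and 42.1 CPM against 12.0 to 25.6 CPM. Crat, which moves acetyl groups onto carnitine, rose by 0.95 (SE 0.08), and Acaa1a by 0.92.

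The mitochondrial rises with amiodarone were few. Acot2 rose from 47.4 to 87.9 CPM to 249, 154, 180 and 178 CPM, a log2 fold change of 1.57 (SE 0.21). Cpt2, the inner-membrane partner of Cpt1a, rose by 0.71 (SE 0.13), Decr1 by 0.67 and Eci1 by 0.57. Etfa, the electron-carrying flavoprotein subunit, rose by 0.33 (SE 0.08). Cpt1a read 640, 556, 431 and 545 CPM against 541, 439, 476 and 644 CPM with amiodarone, and the groups overlapped. Among other targets Acot1 read 0.8 to 3.3 CPM in the vehicle rats and 195, 58.1, 135 and 99.8 CPM in the treated rats, a log2 fold change of 5.82 (SE 0.55). Vnn1 rose by 1.02, Angptl4 by 0.95 and Fabp1 by 0.51, and Pdk4 had a value of 0.96 with an adjusted p of 0.0787 by edgeR. Of the hepatocyte markers 6 of 10 were lower, with a sum of 199843 to 234078 CPM in the vehicle rats and 151585 to 167857 CPM in the treated rats, and their part in the result was not tested.

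The effects of clofibrate and of other drugs at the same dose were set against each other in a fit of both groups and both vehicle groups. The test asks whether the fold change itself differs. Against amiodarone the effect of clofibrate was higher for 17 of 33 members and lower for none, while over all genes it was higher for 6.38% and lower for 4.29%. The difference was 2.87 on the log2 scale for Ehhadh (SE 0.32, adjusted p = 0.000264 by edgeR), 1.27 for Eci1 (SE 0.21) and 3.09 for Cpt1b (SE 0.77). Of the 17, 4 were peroxisomal and 11 mitochondrial. Cpt1a (-0.47, SE 0.24) and Etfa (0.28, SE 0.13) were not among them. Against valproate, an antiepileptic fatty acid, clofibrate was higher for 27 of 33 members, with 6.6% of all genes higher and 3.2% lower. Against troglitazone, a thiazolidinedione that binds the related receptor PPARgamma, it was higher for 19 of 33, with 3.19% of all genes higher and 2.06% lower. Strain and study differ between clofibrate and these drugs, for amiodarone and troglitazone also the batch, and for troglitazone also the vehicle and the number of days, so drug and setting cannot be told apart.

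No member was called with troglitazone, valproate or tetracycline, and neither was any other gene in these 3 comparisons (0% higher and 0% lower by edgeR). At an unadjusted p below 0.05, 8, 5 and 1 members passed, in that order, of 32 tested in each. DESeq2 also called 0 members in each, with 0.514%, 0.755% and 0.889% of all genes called. Ehhadh read 1601, 1222, 1185 and 1550 CPM in the vehicle rats of the troglitazone study and 1572, 1435, 2825 and 1542 CPM in the treated rats. With valproate it read 944 to 1757 CPM in the vehicle rats and 1107, 1244, 864 and 601 CPM in the treated rats (log2 fold change -0.50, SE 0.27). With tetracycline the values overlapped throughout, 1165 to 1487 CPM against 1082 to 1526 CPM. Cpt1a and Pdk4 likewise overlapped between the groups in all 3 comparisons.

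Perhexiline maleate, an antianginal drug known to inhibit the carnitine shuttle enzymes, lowered 1 of 31 members, where 1.05% of all genes were lower and 1.09% higher. The member was Angptl4, from 252, 104, 129 and 185 CPM to 50.2, 53.0, 72.9 and 85.3 CPM (log2 fold change -1.36, SE 0.28, adjusted p = 0.0428 by edgeR). This call was lost when any of the 8 rats was left out. Ehhadh read 469, 463, 357 and 833 CPM in the vehicle rats and 302, 159, 288 and 278 CPM in the treated rats, with a log2 fold change of -1.05 (SE 0.28) and an adjusted p of 0.0737 by edgeR. Cpt1a was at 168 to 399 CPM against 219 to 533 CPM, with overlap.

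MK-3207, an antagonist of the calcitonin gene-related peptide receptor, raised 7 of 32 members at 600 mg/kg and 9 of 32 at 750 mg/kg. Over all genes 1.07% and 1.74% were higher, and 0.693% and 1.34% lower. At the lower dose Ehhadh read 941 to 1349 CPM in the vehicle rats and 3384, 3094, 3143 and 1819 CPM in the treated rats. At the higher dose it read 3788, 4513, 2306 and 3095 CPM. The log2 fold changes were 1.35 (SE 0.20) and 1.59 (SE 0.21). Acot2 rose by 1.57 and 1.48, and Cpt1b by 1.76 and 1.91. Acot1 rose from 0.2 to 0.9 CPM to 13.8, 31.8, 7.6 and 17.3 CPM at 600 mg/kg, and at 750 mg/kg to 19.4, 32.5, 1.7 and 37.7 CPM. Vnn1 rose by 0.98 and 1.12, Crat by 0.75 and 0.46, and Acaa1a by 1.01 and 0.92. Pex11a (0.67) and Eci1 (0.75) rose at the higher dose, where Angptl4 fell by 0.63 (SE 0.14). The 2 doses share their vehicle rats, so their likeness is not independent, and the doses themselves were not tested against each other. Cpt1a read 611, 761, 580 and 1636 CPM at 600 mg/kg against 362 to 486 CPM, which do not overlap, yet its adjusted p was 0.120 by edgeR. The counts of members raised are not stable: with 1 rat left out they ran from 3 to 9 at 600 mg/kg and from 4 to 13 at 750 mg/kg. Of 10 hepatocyte markers 3 were lower at 600 mg/kg and 4 at 750 mg/kg, where their sum was 213631 to 275202 CPM in the vehicle rats and 142108 to 186887 CPM in the treated rats; their part in the result was not tested.

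Esomeprazole, a proton pump inhibitor, raised 6 of 32 members, where 3.18% of all genes were higher and 2.91% lower. They were Acaa1a, Decr2, Acadl, Decr1, Hadhb and Etfdh, with log2 fold changes from 0.52 to 0.81. Ehhadh read 294, 391, 301 and 229 CPM in the vehicle rats and 379, 1699, 2667 and 1336 CPM in the treated rats (log2 fold change 2.32, SE 0.54, adjusted p = 0.0501 by edgeR). The first treated rat lay within the vehicle range and the other 3 far above it. Without that rat 20 members were higher, and without any single other rat 1 or 2 were. RIN was 6.8 to 7.1 in the vehicle rats and 7.6 to 8.2 in the treated rats. With RIN as a covariate 0 members were higher.

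**Figure D3:**
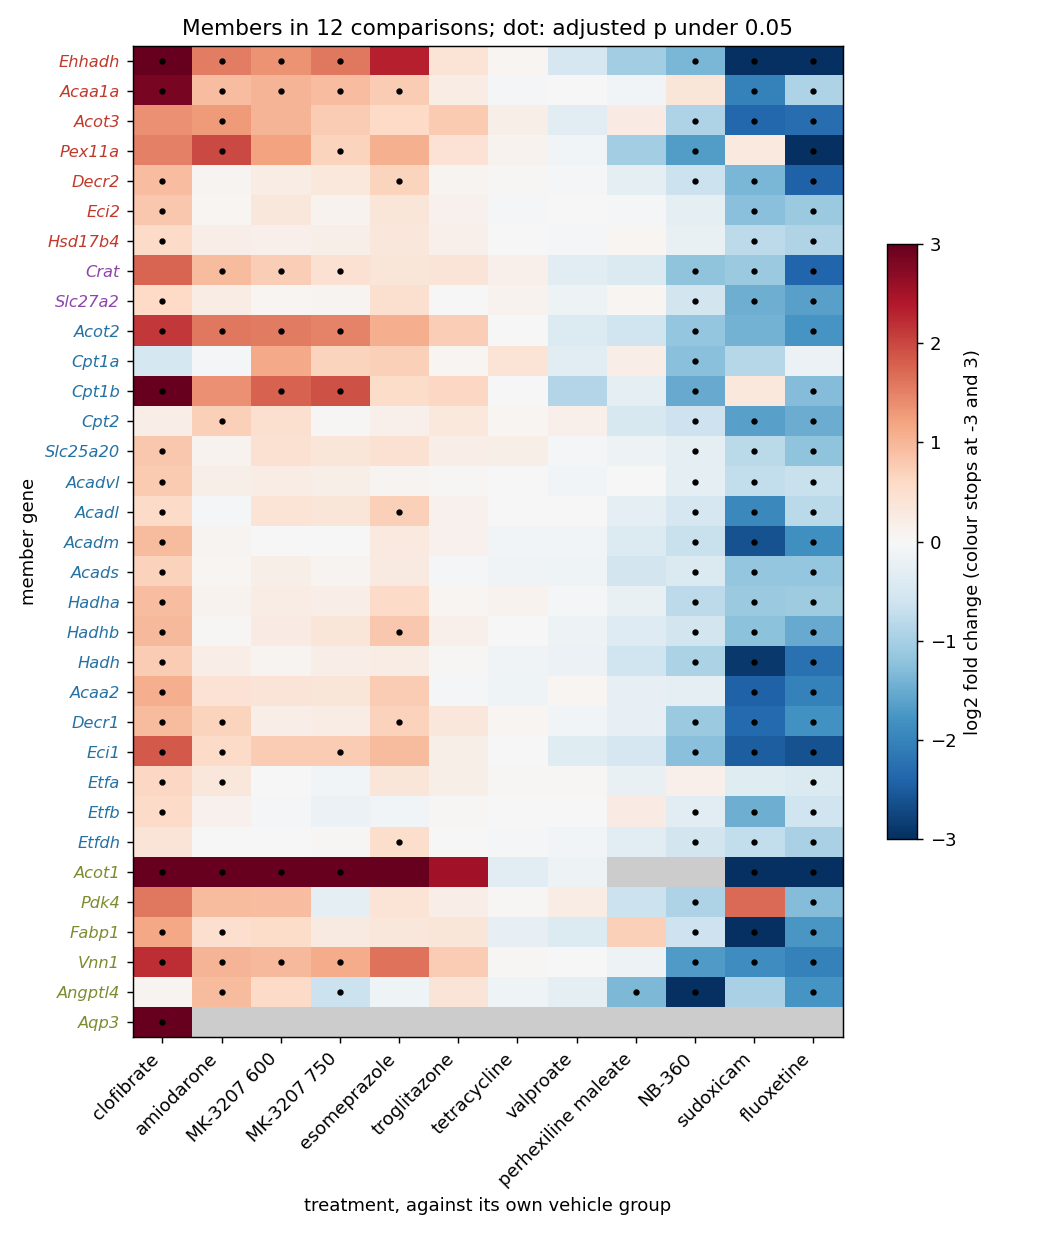
Log2 fold change of 33 members (rows, coloured by role as red peroxisomal, purple more than 1 compartment, blue mitochondrial and olive other targets) in 12 comparisons (columns), with a dot where the adjusted p was below 0.05 and grey where a gene did not pass the count filter. Clofibrate has 25 rises and fluoxetine 31 falls, and Cpt1a has a dot only with NB-360.

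Fluoxetine, a serotonin reuptake inhibitor, lowered 31 of 32 members and raised none; over all genes 23.4% were lower and 23.7% higher. All 7 peroxisomal, both multi-compartment, 17 of 18 mitochondrial and 5 of 5 other members tested fell, with a median log2 fold change of -1.57 against 0 over all genes. Ehhadh read 1670, 1316, 1408 and 1393 CPM in the vehicle rats and 37.4, 144 and 73.4 CPM in the treated rats (log2 fold change -4.09, SE 0.46, adjusted p = 0.000507 by edgeR). Pex11a fell from 48.0 to 78.2 CPM to 4.0, 6.8 and 7.3 CPM (log2 fold change -3.26), and Decr2 from 246 to 283 CPM to 33.2, 71.8 and 40.0 CPM (-2.44). Among mitochondrial members Eci1 had a log2 fold change of -2.61, Hadh, the short-chain hydroxyacyl dehydrogenase, of -2.23, Acaa2 of -2.03 and Acadm of -1.84. Crat and Slc27a2 had log2 fold changes of -2.38 and -1.62, and Acot3 of -2.29. Among other targets Vnn1 was at -2.03, Angptl4 at -1.78 and Fabp1 at -1.76. Acot1 had 0.8 to 3.0 CPM in the vehicle rats and 0, 0 and 0.0524 CPM in the treated rats. Pdk4 went from 39.2 to 111 CPM to 25.9, 32.4 and 33.2 CPM (log2 fold change -1.30, SE 0.32). The 1 member not called was Cpt1a, which read 701, 383, 425 and 421 CPM in the vehicle rats and 408, 483 and 395 CPM in the treated rats. Summed hepatocyte markers were 192185 to 223348 CPM against 140163 to 173665 CPM, with 3 of 10 higher and 2 lower. The 3 neutrophil markers tested were higher, at a sum of 0.331 to 0.835 CPM against 5.26 to 31.6 CPM. RIN was 8.2 to 8.5 in the vehicle rats and 8.6 to 8.9 in the treated rats, and 27 members were lower with RIN as a covariate. The part of the markers in the result was not tested.

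NB-360, a beta-secretase inhibitor, lowered 26 of 31 members and raised none, where 12.7% of all genes were lower and 13.8% higher. By role, 4 of 7 peroxisomal, 2 of 2 multi-compartment, 16 of 18 mitochondrial and 4 of 4 other members tested fell. Angptl4 fell furthest, from 110, 190, 149 and 150 CPM to 10.4, 15.2, 21.2 and 18.9 CPM (log2 fold change -3.19, SE 0.24, adjusted p = 2.47e-05 by edgeR). Vnn1 had a log2 fold change of -1.71, Pex11a of -1.68 and Ehhadh of -1.36, the latter from 681 to 1015 CPM to 295, 352, 337 and 305 CPM. Cpt1a, which fluoxetine left within the vehicle range, read 606, 384, 370 and 402 CPM in the vehicle rats and 122, 229, 194 and 189 CPM in the treated rats, a log2 fold change of -1.26 (SE 0.21). Pdk4 had a log2 fold change of -0.93 (SE 0.22). The mitochondrial members Cpt1b (-1.52), Eci1 (-1.26) and Acot2 (-1.16) fell, as did Crat (-1.22), Slc27a2 (-0.56), Acot3 (-0.93), Decr2 (-0.64) and Fabp1 (-0.63). RIN was 8.1 to 8.6 in the vehicle rats and 8.8 to 9.0 in the treated rats, without overlap, and 7 members were lower with RIN as a covariate. All 10 macrophage markers were lower too, with a sum of 483.6 to 669.2 CPM against 193.2 to 309.6 CPM, and 8 of 10 hepatocyte markers, with a sum of 202954 to 224403 CPM against 109280 to 121730 CPM. Their part in the result was not tested.

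Sudoxicam, a nonsteroidal anti-inflammatory drug, lowered 25 of 32 members and raised none, where 17.8% of all genes were lower and 18.6% higher. Diclofenac, of the same drug class, lowered the same number (12.7% of all genes lower and 15.6% higher), and sudoxicam is described because its members' median was lower. Ehhadh read 623, 850, 680 and 397 CPM in the vehicle rats and 47.3, 21.3 and 26.5 CPM in the treated rats (log2 fold change -4.33, SE 0.40, adjusted p = 0.000193 by edgeR). Fabp1 fell from 1685 to 1917 CPM to 204, 101 and 102 CPM (log2 fold change -3.74), and Acadm from 569 to 654 CPM to 101, 98.2 and 104 CPM (-2.62). Hadh (-2.90), Eci1 (-2.48) and Acaa2 (-2.43) also fell. Of the peroxisomal members Acot3 (-2.36), Acaa1a (-2.03) and Decr2 (-1.37) fell, and so did Slc27a2 (-1.46), Crat (-1.11) and Vnn1 (-1.86). Cpt1a and Pdk4 differed widely between the 3 treated rats. Cpt1a read 118, 725 and 459 CPM against 744 to 839 CPM in the vehicle rats, and Pdk4 read 1.9, 55.3 and 242 CPM against 18.3 to 53.3 CPM. Neither was called. Neutrophil markers summed to 0.764 to 1.78 CPM in the vehicle rats and 36.3 to 57.4 CPM in the treated rats, and macrophage markers to 473 to 622 CPM and 1142 to 1284 CPM, with 8 of 10 higher. The 2 adipocyte markers tested were higher, with a list sum of 9.26 to 12.2 CPM against 39.3 to 126 CPM, while 3 (Adipoq, Plin1 and Lep) did not pass the count filter. RIN was 6.6 to 8.0 in the vehicle rats and 7.9 to 8.4 in the treated rats, and 18 members were lower with RIN as a covariate. The part of the markers in the result was not tested.

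Peroxisomal and mitochondrial members were then compared by their median log2 fold changes in each comparison. The peroxisomal median lay above the mitochondrial one in 55 comparisons and below it in 42, and the median difference was 0.03. In 77 of the 97 the medians lay within 0.3 of each other. Both were below 0 in 63 comparisons and both above 0 in 20. The difference was largest on the upper side with MK-3207 at 600 mg/kg (0.77), amiodarone (0.77) and clofibrate (0.58), and on the lower side with mibefradil (-1.08) and fluoxetine (-1.03). In all 5 comparisons with at least 5 members higher the peroxisomal median was the higher one. In 18 of the 24 comparisons with at least 10 members lower it was the lower one, with a median difference of -0.14. Shares of calls did not separate the compartments: 15.3% of peroxisomal and 16.2% of mitochondrial tests were lower, and 4.12% and 2.69% were higher. These are descriptions of medians over 7 and 18 genes, with no test.

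Per rat, the mean log2 CPM (plus 0.5) of the members in each compartment was set against the vehicle mean. With amiodarone the 4 treated rats had peroxisomal means of 0.79 to 1.01 and mitochondrial means of 0.20 to 0.56, and the peroxisomal value was higher by 0.45 to 0.64 within every rat. The vehicle rats had differences of -0.18 to 0.16. With fluoxetine the peroxisomal means were -2.69 to -1.63 and the mitochondrial means -1.66 to -0.97, with differences of -1.03 to -0.66 within a rat. With clofibrate the differences ran from 0.20 to 1.18, and the largest belonged to the third treated rat. Without that rat the difference of the medians for clofibrate was -0.05 (0.66 peroxisomal, 0.71 mitochondrial). With NB-360 (-0.05) and sudoxicam (-0.04) the medians of the compartments were alike. The means within a rat differed by -0.10 to 0.16 in the NB-360 rats and by -0.15 to 0.14 in their vehicle rats. In the sudoxicam rats they differed by -0.40, -0.40 and -0.08, and in their vehicle rats by -0.21 to 0.11. For sudoxicam the 2 measures thus do not give the same picture. In the RefSeq table the differences for amiodarone, MK-3207 at 750 and MK-3207 at 600 mg/kg were 0.30, 0.28 and 0.24.

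**Figure D4:**
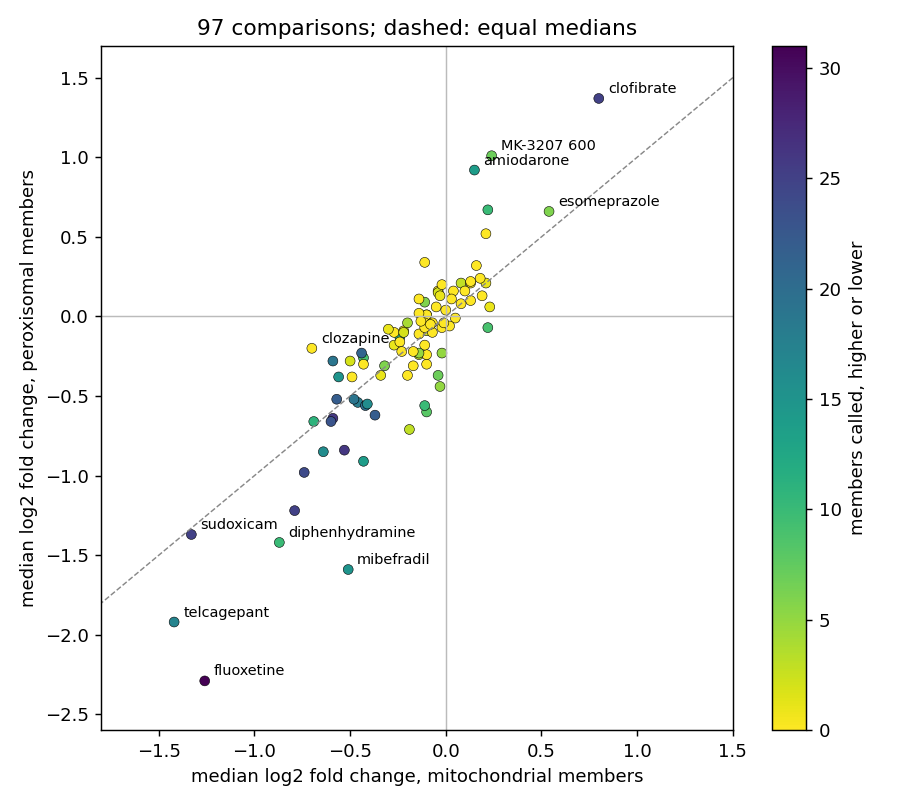
Median log2 fold change of the 7 peroxisomal (vertical axis) against the 18 mitochondrial members (horizontal axis) in 97 comparisons, coloured by the number of members called. Most points lie near the dashed line of equal medians; clofibrate (0.80, 1.37) is above it and fluoxetine (-1.26, -2.29) below.

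Single members differed in how often they were called, out of 97 comparisons unless stated. Eci1 was lower in 24 and higher in 3, Ehhadh and Acadm were lower in 23, and Slc27a2 and Hadh in 22. The peroxisomal members called lower least often were Acaa1a (6) and Hsd17b4 (7), and the mitochondrial one was Etfa (2). In all, 30 members were lower more often than higher. The exceptions were Acaa1a (14 higher, 6 lower), Etfa (9 higher, 2 lower) and Aqp3 (2 higher, 1 lower, in 24 comparisons in which it passed the count filter). Each of the 33 members was higher in at least 1 comparison and lower in at least 1.

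Clofibrate gave the largest called rise for most members, and the exceptions are listed next. The largest rise of Pex11a, Acot3, Crat and Cpt2 came with amiodarone, that of Acadl (0.72) and Etfdh (0.52) with esomeprazole, and that of Etfa (0.81) with almorexant. The largest rise of Pdk4 (2.00) and Angptl4 (1.28) came with methyldopa and that of Cpt1a, its only one, with TCDD (0.57). The largest called log2 fold change of Aqp3, 6.27, came with co-amoxiclav, from a vehicle mean of 0.0648 CPM to a treated mean of 5.77 CPM. That vehicle mean is near the floor. With clofibrate the value was 6.14, and the difference was not tested. The largest falls came mostly with sudoxicam, telcagepant and fluoxetine. Telcagepant had the lowest values for Vnn1 (-4.47), Eci1 (-3.48), Acot3 (-3.07), Cpt1a (-2.95), Slc27a2, Hadhb and Hadha. Mibefradil had the lowest for Pex11a (-3.28), bardoxolone for Pdk4 (-2.20), zimelidine for Acot1 (-6.13) and diclofenac for Acot2 (-2.43). Almorexant had the lowest for Etfdh (-1.14), chlorpropamide for Cpt1b (-1.72) and azithromycin for Aqp3 (-4.99). The Acot1 mean went from 3.76 to 0.0481 CPM and the Aqp3 mean from 2.65 to 0.0719 CPM, so both treated means are near the floor.

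**Figure D5:**
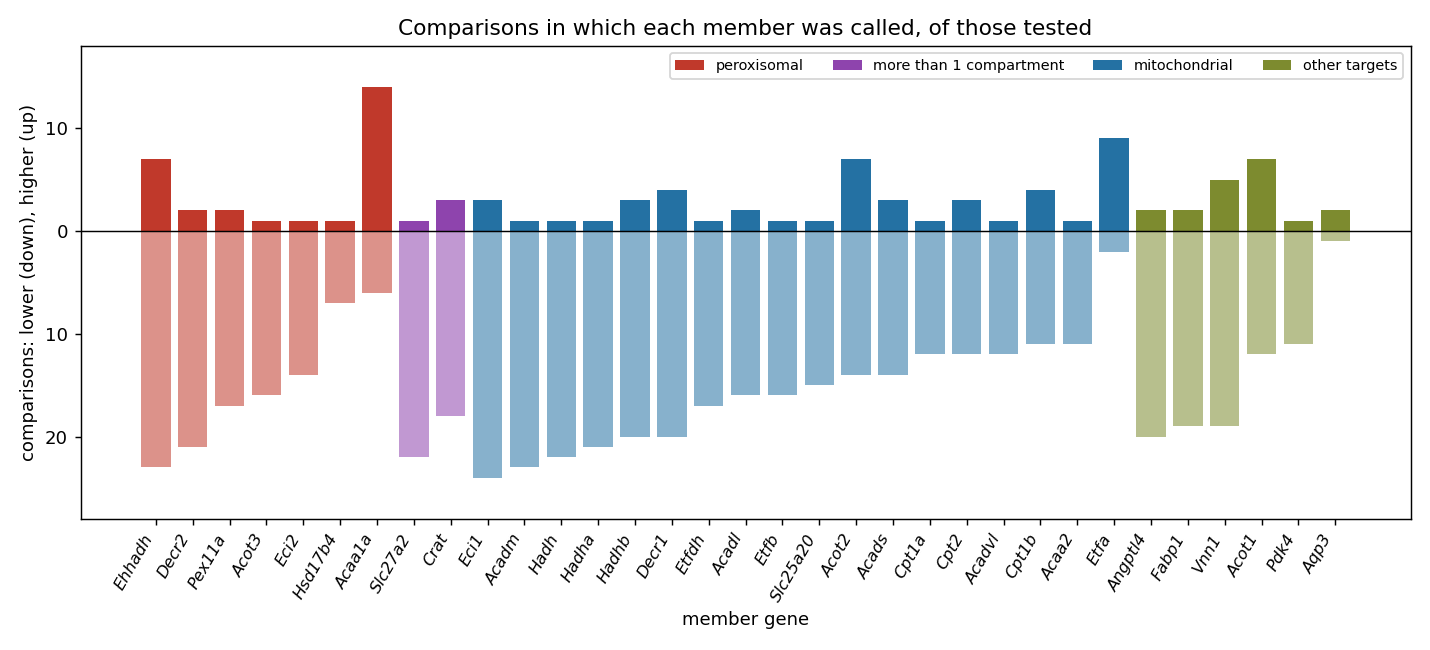
Number of comparisons in which each of 33 members was called higher (bars up) or lower (pale bars down), coloured by role. Most bars reach further down than up; Acaa1a (14 up, 6 down) and Etfa (9 up, 2 down) go the other way.

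Another 6 mitochondrial members were called lower in 12 to 17 comparisons each. Acadvl, the very-long-chain dehydrogenase, was lower in 12 comparisons, and its largest called changes were 0.79 and -0.73. Acads, the short-chain dehydrogenase, was lower in 14, between 0.70 and -1.16. Slc25a20, which carries acylcarnitines across the inner membrane, was lower in 15 and ranged from 0.80 to -1.22. Etfb was lower in 16 and ranged from 0.56 to -1.46, and Etfdh, which passes electrons on to ubiquinone, was lower in 17. Acadl, the long-chain dehydrogenase, was lower in 16 and reached -1.94 with sudoxicam. These ranges are narrower than that of Eci1, from 1.84 to -3.48.

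Pairs of subunits of 1 protein, or of counterparts in mitochondria and peroxisomes, mostly kept 1 direction, apart from Etfa and Etfb. Hadha and Hadhb, which form 1 protein complex, were both lower in 19 comparisons and both higher in 1, and never called in opposite directions. Decr1 and Decr2, the mitochondrial and peroxisomal reductases, were both lower in 17 and both higher in 2. Eci1 and Eci2 were both lower in 11 and both higher in 1. Etfa and Etfb, which form the electron transfer flavoprotein, differed: both were higher in 1 comparison (clofibrate) and lower in 2, and Etfa was higher while Etfb was lower in 4 (almorexant, bardoxolone, flutamide and ticlopidine). Acaa1a was higher while Ehhadh was lower in 6 comparisons (Cmpd Z, PCN, carbamazepine, flutamide, methimazole and ticlopidine). In the RefSeq table, with Acaa1b listed apart, Acaa1a was higher in 5 and lower in 6 comparisons and Acaa1b higher in 22 and lower in 7, where 5.21% of all tests were higher and 4.65% lower. Of the 6 comparisons with Acaa1a higher and Ehhadh lower, Acaa1a was called in 1 there (Cmpd Z, 0.53). In the other 5 it was not called. Its log2 fold changes were 0.47 with PCN, 0.30 with methimazole, 0.07 with carbamazepine, -0.08 with flutamide and -0.09 with ticlopidine. The opposite direction of Acaa1a thus depends on the gene table. In the RefSeq table Acaa1b was called higher with Cmpd Z (1.73), carbamazepine (2.72), flutamide (2.47) and methimazole (1.77). With PCN Acaa1b was not called (0.81), and its value with ticlopidine is not given here. Etfa was higher in 10 and lower in 2 there.

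Cd36 went against the other members in several comparisons. In the RefSeq table it was higher in 17 of 96 comparisons and lower in 5. With fluoxetine it rose from 6.76 ± 2.19 CPM (SD, n = 4) to 18.5 ± 5.66 CPM (n = 3), a log2 fold change of 1.46 (SE 0.28), and with sudoxicam from 3.83 ± 1.18 (n = 4) to 23.0 ± 6.40 CPM (n = 3), a log2 fold change of 2.59 (SE 0.28). It also rose with amiodarone (1.84, SE 0.25) and clofibrate (2.49, SE 0.48). Its largest rise was with naproxen (3.01, in only 2 treated rats) and its largest fall with almorexant (-5.85). Macrophages, endothelium and fat cells also express Cd36. With sudoxicam 8 of 10 macrophage, 4 of 5 endothelial and 2 of 2 adipocyte markers tested were higher, and 1 endothelial marker was lower. The endothelial sum was 101.6 to 156.0 CPM in the vehicle rats and 222.4 to 377.0 CPM in the treated rats, and the sums of the others stand with the sudoxicam results. With fluoxetine 3 of 10 macrophage markers were higher and 3 lower (457.8 to 517.7 against 504.9 to 759.4 CPM), none of 5 endothelial markers was higher and 1 was lower (164.3 to 240.5 against 155.1 to 188.2 CPM), and 1 of 2 adipocyte markers was higher (6.95 to 8.07 against 11.6 to 23.5 CPM). Their part in the Cd36 values was not tested.

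Other genes of the pathway were counted from lists that hold no member. Of the ketone body genes, 17.9% of tests over the 97 comparisons were lower and 2.47% higher. Of 24 other peroxisomal genes 9.65% of tests were lower and 3.79% higher, of 12 other mitochondrial oxidation genes 11.1% and 5.17%, and of 15 other PPARalpha targets 11.7% and 5.37%. The receptor and its partners were lower in 5.07% of tests and higher in 4.35%, near the shares over all genes. Ppara itself was lower in 6 and higher in 8 comparisons. With clofibrate 3 of 24 other peroxisomal genes rose and none fell, a share near the 8.71% of all genes that were higher. Of the other targets 5 of 14 rose, among them the fatty acid hydroxylase Cyp4a1 (2.44, SE 0.27), and 1 fell. Of the other mitochondrial genes 4 of 12 rose and none fell. Of the ketone body genes 3 of 5 rose, led by Acat1 (2.18, SE 0.16), and none of the 10 receptor and partner genes was called. With fluoxetine, where 23.4% of all genes were lower, 15 of 24 other peroxisomal genes fell and 1 rose, led by the carnitine transferase Crot (-3.08, SE 0.40). There 4 of 5 ketone body genes fell, and Ppara fell by 1.86 (SE 0.28). With sudoxicam, where 17.8% of all genes were lower, 4 of 5 ketone body genes and 7 of 14 other targets fell, and the mitochondrial and peroxisomal lists had 6 of 12 and 11 of 24 lower; 1 gene was higher in each of these lists except the ketone body list. The long-chain activating enzyme Acsl1 changed by -3.72 (SE 0.21) there. With NB-360, where 12.7% of all genes were lower and 13.8% higher, 9 of 14 other targets fell and 3 rose. The lipogenic malic enzyme Me1 rose by 2.25 (SE 0.13).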

How the data were processed

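Liver RNA of 680 rats was sequenced in 743 libraries from a stranded poly(A) kit, per the labels' protocols. The authors deposited estimated counts per gene (87.5% of the non-zero values whole) and FPKM for Ensembl and RefSeq genes; the genome build was Rnor_6.0, per the submitters' processing notes, and the aligner and counter are not given in the sources used here. Library totals ran from 0.312 to 45.5 M counts (median 18.19; the lowest outside the PCN study was 11.2). Libraries of 1 rat were summed and counts rounded. A row for the whole Ugt1a locus, which repeats its transcripts, was left out. Each treated group was tested against its vehicle group with edgeR 4.0.16 (filterByExpr, TMM, robust quasi-likelihood, Benjamini-Hochberg over all genes), with sex as a covariate for bardoxolone and pyrazole. Almorexant batch 2 (1 vehicle rat) was not tested. Alternatives were other size factors, DESeq2 1.42.0, no filter, the RefSeq table, RIN, a minimum fold and each rat left out. In simulated counts of the clofibrate comparison (12273 genes), 94.9% of genes changed by 2 on the log2 scale and 69.4% of those changed by 1 were called. The spread between rats in this simulation came from the vehicle rats alone. Some genes spread more widely among the clofibrate rats, so these shares may be too high for the real comparison.

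The members and lists were chosen with earlier results of these data known. The comparisons described were those with 6 reference drugs, plus the 3 others with most members lower and the 3 with most higher, ties by the larger median. Genes named were, in each, up to 4 called members per role with the largest change, and Cpt1a, Ehhadh and Pdk4; other members given in the text were chosen after their values were seen. Some genes of the other pathway lists are not reported here by name.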

Additional observations from a re-analysis of the deposited data

Results flagged for a closer look

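In groups of 4 rats, the values of Ehhadh, Cpt1a and Pdk4 and the compartment means were searched for a rat far from the rest of its group; chance gives such a rat in about 1 of 20 groups. A rat stood apart in 8 of the 110 sets of values searched, where a set is 1 of these quantities in 1 group. Sets from the same rats are not independent, and both MK-3207 comparisons use the same vehicle rats. The number can therefore be set against that rate only roughly. Pdk4 was 337 CPM in 1 clofibrate rat and 14.8 to 51.0 CPM in the other 3. Ehhadh was 1195 CPM in 1 vehicle rat of that study and 623 to 636 CPM in the others. Ehhadh was 2825 CPM in 1 troglitazone rat against 1435 to 1572 CPM in the others, and 159 CPM in 1 perhexiline maleate rat against 278 to 302 CPM. Pdk4 was 88.3 CPM in 1 vehicle rat of the perhexiline maleate study against 28.0 to 36.6 CPM. Cpt1a was 701 CPM in 1 vehicle rat of the fluoxetine study against 383 to 425 CPM, and 606 CPM in 1 vehicle rat of the NB-360 study against 370 to 402 CPM. The peroxisomal mean of 1 vehicle rat in the esomeprazole study was 0.29, and the others were at -0.11 to -0.06 on the log2 scale.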

How the results depend on the processing

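No paired analysis was possible because replicate numbers were given in accession order and the labels pair no rats. RLE size factors and omitting the count filter moved no summary count or difference past its limit (1.5 times for a count, 1 SD between rats for a difference). DESeq2 gave 181 calls higher over all comparisons (98 with edgeR), 4 members lower with perhexiline maleate (4 of 31, where DESeq2 called 9.18% of all genes), 14, 14 and 18 higher with MK-3207 at 750, at 600 and esomeprazole (9.27%, 6.28% and 10.2% of all genes called), and put 18 members at 5 or more rises (6 with edgeR) and 29 at 15 or more falls (19 with edgeR). RIN as a covariate gave 268 calls lower (508 without), 7 with NB-360, 0 with perhexiline maleate and 0 higher with esomeprazole, left 1 member with 15 or more falls, and a compartment difference of -0.25 for esomeprazole; the cause was not tested. Without libraries of RIN under 7 esomeprazole had 0 calls. A minimum log2 fold change of 1, which by construction removes calls, left 40 higher and 230 lower, 10 with clofibrate, 6 with amiodarone, 10 with NB-360, 5 with MK-3207 at 750 and 0 with esomeprazole, and 3 members each at 5 rises and 15 falls. The RefSeq table gave compartment differences of 0.30, 0.28 and 0.24 for amiodarone, MK-3207 at 750 and at 600, and Crat and Slc27a2 counted as peroxisomal gave 0.24 at 750 and 0.51 at 600.

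Leaving out 1 rat gave 20 to 26 members with clofibrate, 10 to 13 with amiodarone, 28 to 30 with fluoxetine, 22 to 26 with NB-360, 21 to 26 with sudoxicam, 4 to 13 and 3 to 9 with MK-3207 at 750 and 600, 1 to 20 with esomeprazole and 0 to 0 with perhexiline maleate. The compartment difference ran from -0.05 to 0.84 with clofibrate (lowest without the third treated rat), -1.18 to -0.76 with fluoxetine, 0.36 to 0.56 and 0.54 to 0.80 with MK-3207 at 750 and 600. Directions that reversed all belonged to values not called. Without 1 rat, Pdk4 ran from -0.32 to 1.95 with clofibrate, -0.11 to 2.26 with sudoxicam and -0.18 to 0.20 with tetracycline (also -0.02, -0.05 and -0.01). Cpt1a ran from -0.12 to 0.25 with troglitazone (also -0.08), -0.16 to 0.04 with amiodarone (also 0.03), -0.17 to 0.43 with perhexiline maleate and -0.27 to 0.06 with fluoxetine, and Ehhadh from -0.01 to 0.15 with tetracycline (also 0). With RIN, Cpt1a (-0.16) and Pdk4 (-0.01) with troglitazone and Pdk4 with tetracycline (-0.22) reversed. The median of the members was 0.06 with lapatinib and 0.12 in a repeat run of the same rats.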
